A study of Rattus norvegicus with 24 samples.

Results

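The genes described here break down fatty acids, handle ketone bodies or build the peroxisomal route of fat oxidation, and a set of fatty acid handling genes counted among the targets of PPAR receptors was included with them. They were chosen by name, as the probe sets whose annotated symbol is 1 of 52 symbols. The names were set with earlier results of these data known. For 51 symbols a probe set carried that symbol alone, which gave 60 probe sets of the 15923 on the array. They comprised 25 mitochondrial, 17 peroxisomal, 4 ketone body and 14 PPAR target probe sets. Acaa1a had only a probe set shared with Acaa1b and was left out with the 3 other probe sets that carry several symbols (Eci3 with Eci2, Cd36l1 with Cd36, and Acot2 with Acot1). Of the 60, 56 were bright enough to be tested, for 50 genes. The untested ones were Fabp1 and 1 of the probe sets of Bdh1, Eci1 and Hadh.

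All groups are male SHR-SP rats, a stroke-prone strain with inherited hypertension, so no normotensive strain was compared. From 11 weeks of age, normal-diet animals had powdered Purina 5001 chow and plain water, and the others had a Harlan TekLad chow with 24.5% fat and drinking water with 1% NaCl, called the salt-fat diet below. Salt and fat were given together and cannot be told apart. Kidneys were taken after 2 or 8 weeks, from 6 animals for each diet and time, with 1 array for each animal. The 8-week animals were thus older, and age cannot be told apart from time on a diet. Whole-kidney tissue was used, so RNA of all renal cell types and of attached fat is mixed, and a lower level from fewer cells of a type cannot be told apart from less RNA in each cell.

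In mitochondrial oxidation, fatty acids are activated to acyl-CoA by the Acsl synthetases, passed across the inner membrane as carnitine esters by Cpt1, Slc25a20 and Cpt2, and shortened in repeated cycles of dehydrogenation, hydration, dehydrogenation and thiolysis. Peroxisomes run a similar cycle on very long, branched and dicarboxylic fatty acids through Ehhadh, Hsd17b4 and the Acox oxidases. The proximal tubule of the kidney relies on fat oxidation for most of its energy, and ketone bodies are a further fuel that Bdh1, Oxct1 and Acat1 lead into the mitochondrial cycle. The nuclear receptor PPAR alpha, paired with a retinoid X receptor, induces many genes of both routes and binds a direct repeat of AGGTCA units spaced by a single base, called DR1.

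Array medians lay between 68.7 and 78.7 signal units, and correlations between arrays of a group were 0.958 to 0.981. Normal-diet arrays 1 and 2 at 8 weeks stood apart in their dimmest signals, with a first percentile up to 3 against at most 1.2 elsewhere. Precision is limited by the 6 arrays in a group. Kidney markers were present: 30 of 31 proximal tubule probe sets could be tested. Signals of adipocyte genes differed between kidneys, and the amount of attached fat cannot be told apart from RNA levels in fat cells. A fat index, which averages the standardised log2 signals of the adipocyte genes Car3, Cfd and Fabp4, ran from -0.53 to 1.92 in the 2-week normal-diet kidneys and from -1.24 to -0.39 in the 2-week salt-fat kidneys. At 8 weeks it ran from -1.71 to 1.85 on the normal diet and from -0.16 to 0.41 on the salt-fat diet.

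Promoters of 45 of the 51 member genes were matched by symbol in RefSeq (GRCr8, 250 bases before to 50 after the start); Acadl, Cpt1b, Decr1, Vnn1, Ech1 and Acaa2 were not matched. They were searched on both strands for DR1, written as AGGTCA, any base N, and AGGTCA again, with at most 2 mismatches over its 12 fixed letters. A match was found in 9 of 45 member promoters (20.0%), against 1263 of 33469 promoters of all genes (3.77%). With at most 1 mismatch these shares were 4 of 45 (8.89%) and 0.439%. The members include genes counted as PPAR targets, and PPAR alpha binds DR1. These comparisons are therefore not independent of how the members were chosen. The single repeat unit AGGTCA or TGACCT, which is part of DR1, was in 22.2% of member promoters and 16.2% of all. Of the 9 genes with a match, 3 changed with diet in the comparisons below, while 21 of the 45 with a promoter did so. These 3, Acot12, Amacr and Echs1, are printed because their genes changed with diet, together with Fabp1 and Acadvl, whose matches, like those of Acot12 and Acot8, differ from DR1 at a single letter. The other matches were in Acot8, Crat, Etfa and Slc25a20. Each line gives 120 bases, 5′ to 3′ along the gene, with the match in capitals.
Acot12: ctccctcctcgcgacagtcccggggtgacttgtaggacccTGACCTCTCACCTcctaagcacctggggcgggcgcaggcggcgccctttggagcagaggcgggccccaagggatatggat
Amacr: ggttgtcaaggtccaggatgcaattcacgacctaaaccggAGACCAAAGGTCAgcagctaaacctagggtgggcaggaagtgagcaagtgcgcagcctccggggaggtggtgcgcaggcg
Echs1: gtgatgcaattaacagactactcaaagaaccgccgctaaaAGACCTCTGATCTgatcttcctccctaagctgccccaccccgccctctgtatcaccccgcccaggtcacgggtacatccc
Fabp1: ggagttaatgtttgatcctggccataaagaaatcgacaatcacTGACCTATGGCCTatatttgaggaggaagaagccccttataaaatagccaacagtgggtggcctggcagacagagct
Acadvl: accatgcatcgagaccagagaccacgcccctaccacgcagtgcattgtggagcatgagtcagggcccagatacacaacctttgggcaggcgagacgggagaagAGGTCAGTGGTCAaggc
The Acot12 stretch is chr2:24721814-24721933 on the plus strand, with the match from base -105 to base -93, where -1 is the last base before the start. The Amacr stretch is chr2:61673087-61673206 (plus strand, -208 to -196), and the Echs1 stretch is chr1:204333582-204333701 (minus strand, -155 to -143). The Fabp1 stretch is chr4:104749220-104749339 (plus strand, -77 to -65), and the Acadvl stretch is chr10:55236706-55236825 (minus strand, -17 to -5). A match describes the letters only and was not tested for binding.

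After 2 weeks on the salt-fat diet, more member genes were lower than higher. Of 56 tested probe sets, 15 fell and 4 rose, by limma's two-sided test with p adjusted (Benjamini-Hochberg) across the 10208 probe sets tested and a threshold of 0.05. These 19 probe sets of 19 genes are read against 8.74% of all probe sets called, 4.19% lower and 4.55% higher. The median difference over the 56 was -0.13, and that over all tested was 0.02. All differences are given as log2(signal + 7.2) on the salt-fat diet minus the normal diet ± SE, a scale that understates changes of dim probe sets. In 10 probe sets the 6 salt-fat and 6 normal-diet animals did not overlap, against 4.85% of all tested. By role, 6 were lower and 2 higher of 13 PPAR target probe sets (median -0.36), 6 lower and 1 higher of 23 mitochondrial ones (median -0.09) and 3 lower of 17 peroxisomal ones (median -0.13), and the roles were not tested against each other. Without normal-diet animal 1, normal-diet animal 2 or salt-fat animal 2, the count was 12, 12 and 10.

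**Figure D1:**
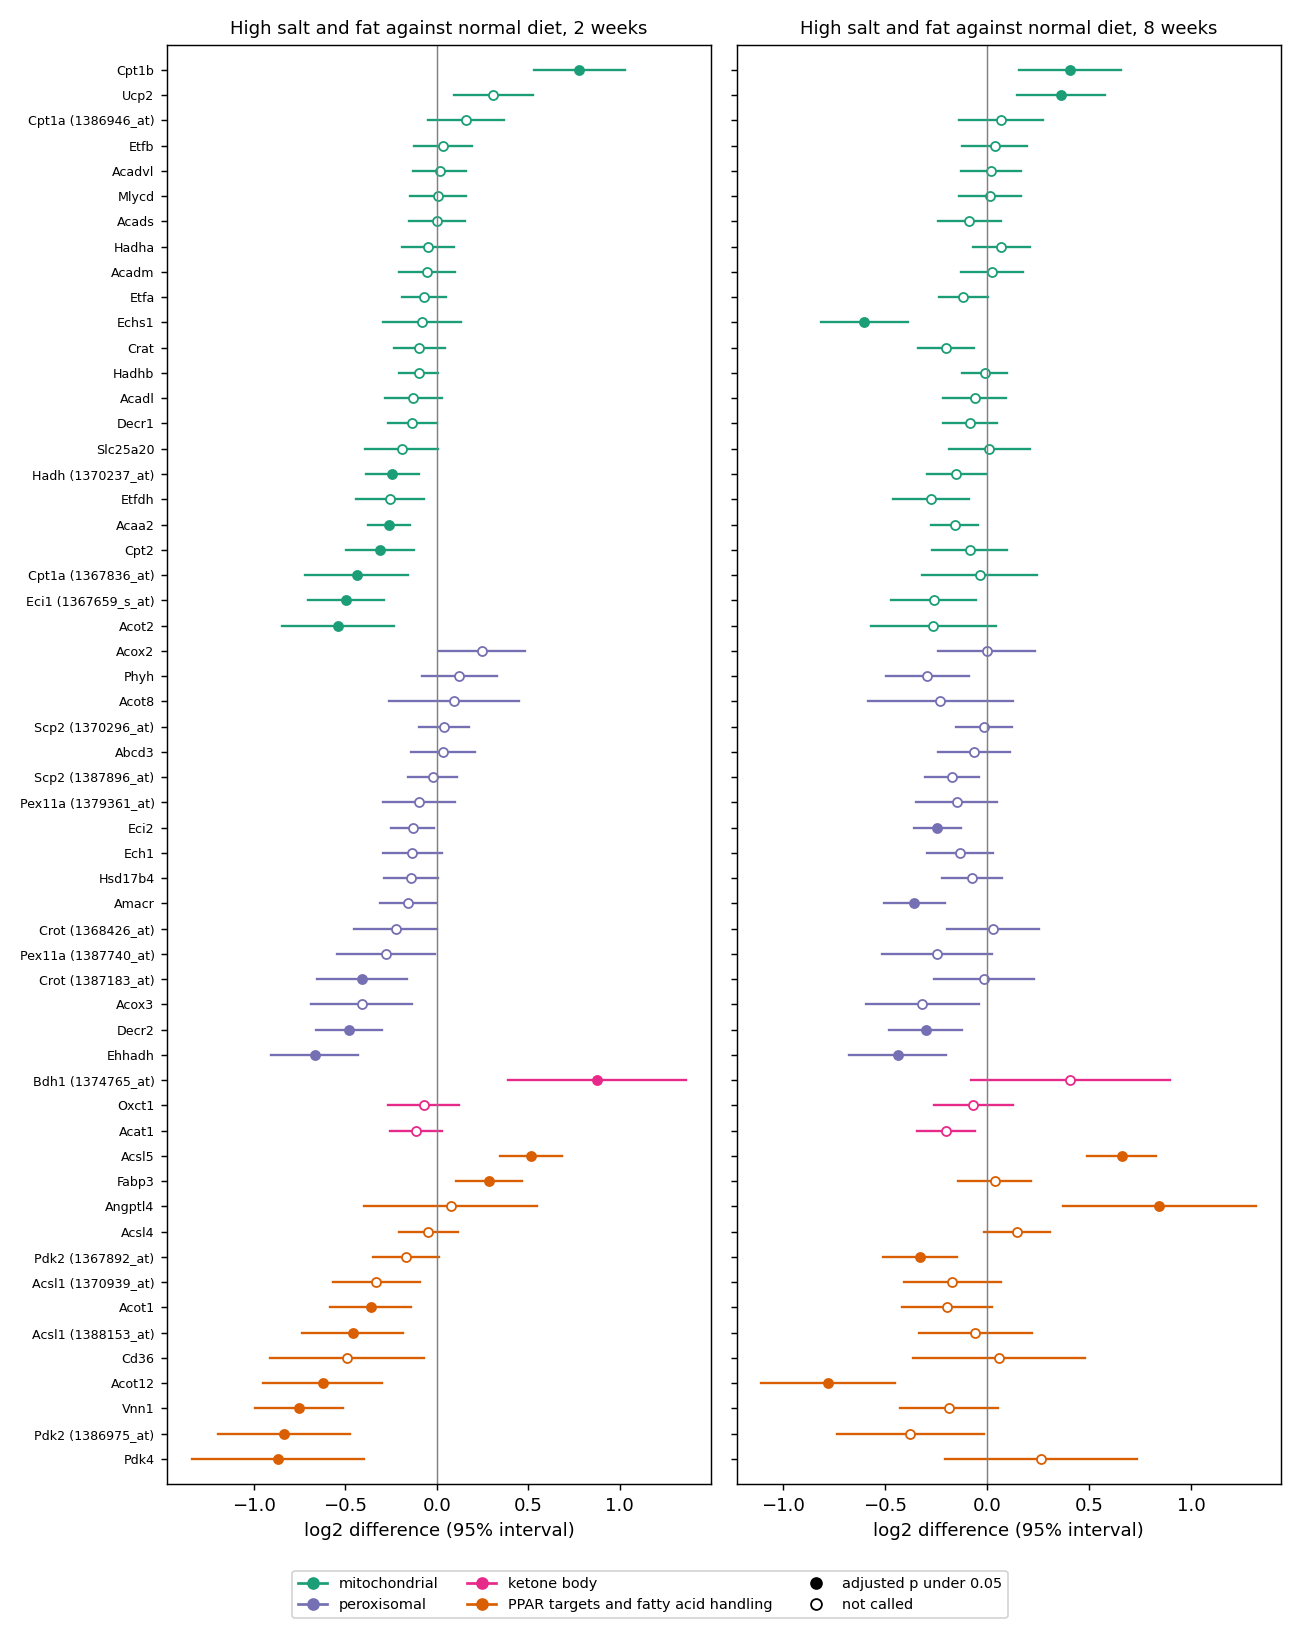
Log2 differences of the 56 tested member probe sets between the salt-fat and the normal diet at 2 weeks (left) and 8 weeks (right), with 95% intervals from limma, coloured by role. Filled points have an adjusted p under 0.05: 19 at 2 weeks, mostly left of 0, and 11 at 8 weeks.

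Among the carnitine shuttle genes, Cpt1b, the muscle-type carnitine palmitoyltransferase, rose, while Cpt2, its partner at the inner membrane, fell. Cpt1b signals were 99 to 163 with a median of 127.45 in the 2-week normal-diet kidneys and 196.3 to 269.9 with a median of 215.35 in the salt-fat kidneys. Every salt-fat animal was above every normal-diet animal, and the difference was 0.78 ± 0.12 (adjusted p = 0.000159). Cpt2 was 296 ± 20.2 on the normal diet and 238 ± 25.9 on the salt-fat diet (SD, n = 6), a difference of -0.31 ± 0.09 (adjusted p = 0.0306). Cpt1a, the liver-type enzyme and the usual rate-limiting step of the pathway, gave no single answer. Its probe set 1367836_at fell, from 793 ± 107 to 597 ± 146 (-0.44 ± 0.14, adjusted p = 0.0452), whereas 1386946_at, annotated with the same transcript NM_031559, differed by 0.16 ± 0.10 (adjusted p = 0.356). Skeletal and heart muscle markers, beside which the muscle-type Cpt1b is given, were called in 0 of 6 tested probe sets at 2 weeks with limma (2 with an unadjusted p under 0.05), and their summed signal was 4675 to 5870 on the normal diet and 4045 to 5715 on the salt-fat diet. The Cpt1a call was lost without any 1 of normal-diet animals 1 to 4 or salt-fat animals 2 and 5 (-0.46 to -0.28), and that of Cpt2 without normal-diet animals 1, 2 or 3 or salt-fat animals 3, 5 or 6 (-0.31 to -0.26).

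Within the mitochondrial cycle, falls were seen at isomerase, dehydrogenase and thiolase steps. Eci1, an enoyl-CoA isomerase needed for unsaturated fatty acids, had signals of 1912.4 to 2796.6 (median 2298.85) on the normal diet and 1500.3 to 1908.8 (median 1626.4) on the salt-fat diet. The groups did not overlap, although the highest salt-fat and lowest normal-diet animals nearly touched, and the difference was -0.49 ± 0.10 (adjusted p = 0.00238). Acaa2, the mitochondrial thiolase that releases acetyl-CoA, went from 1985 ± 37.2 to 1661 ± 123 (-0.26 ± 0.06, adjusted p = 0.00379). Hadh, a 3-hydroxyacyl-CoA dehydrogenase, went from 1742 ± 85 to 1473 ± 93.9 (-0.24 ± 0.07, adjusted p = 0.0312), again without overlap. Acot2, a mitochondrial thioesterase that frees fatty acids from CoA, had 89.4 to 114.4 (median 110.25) against 56.2 to 86.5 (median 71.9), so that each salt-fat animal was lower (-0.54 ± 0.15, adjusted p = 0.022). The Hadh call was lost without normal-diet animals 1, 2, 3 or 6 or salt-fat animals 1, 2, 4 or 6 (-0.25 to -0.22), and that of Acot2 without salt-fat animal 2 (-0.48). The chain-length specific dehydrogenases and the trifunctional protein were not called. Acadm, which acts on medium chains, differed by -0.05 ± 0.07 (adjusted p = 0.723) and Hadha, the larger trifunctional subunit, by -0.05 ± 0.07 (adjusted p = 0.728). Acadl, Acads, Acadvl, Hadhb, Etfa and Etfb, which pass chains or electrons onward, lay between -0.13 and 0.03 and were not called. Etfdh, which hands electrons from Etfa and Etfb to the respiratory chain, differed by -0.26 ± 0.09 (adjusted p = 0.0791), and without salt-fat animal 5 it was called (-0.31, adjusted p = 0.0351).

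In peroxisomes, Ehhadh, the bifunctional enzyme of the classical PPAR alpha response, showed the largest fall. Its signals were 804 to 968.3 (median 857.9) on the normal diet and 430.4 to 710.5 (median 529.65) on the salt-fat diet, without overlap (-0.67 ± 0.12, adjusted p = 0.000558). Decr2, a peroxisomal dienoyl-CoA reductase for unsaturated chains, had 803.6 to 1076.7 (median 947) against 565.8 to 824.7 (median 651.2). A salt-fat animal lay within the normal-diet range, and the difference was -0.48 ± 0.09 (adjusted p = 0.000971). Crot, which turns shortened acyl-CoA into carnitine esters for export, fell by 1 of its 2 probe sets (1387183_at, -0.41 ± 0.12, adjusted p = 0.0304), while 1368426_at, with the same accession J02844, differed by -0.22 ± 0.11 (adjusted p = 0.223). The first Crot call was lost without normal-diet animals 1, 2, 3 or 6 or salt-fat animal 2 (-0.41 to -0.27). Hsd17b4, the second bifunctional enzyme, which serves branched chains, differed by -0.14 ± 0.07 (adjusted p = 0.238). The other 13 peroxisomal probe sets at 2 weeks, the second of Crot included with Acox2, Acox3, Phyh and Scp2, were not called, with differences from -0.41 (Acox3, adjusted p = 0.0549) to 0.25 (Acox2, adjusted p = 0.196). Without salt-fat animal 1 Acox3 was called (-0.46, adjusted p = 0.04).

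Of the ketone body genes, Bdh1, which interconverts 3-hydroxybutyrate and acetoacetate, rose on the brighter of its probe sets. The signals of 1374765_at were 19.6 to 34.1 (median 25) on the normal diet and 42.4 to 79.6 (median 48.3) on the salt-fat diet, with every salt-fat animal above the normal-diet range (0.88 ± 0.24, adjusted p = 0.0195). These are dim signals: the probe set exceeded the level required for testing in 6 of the 24 arrays, the fewest allowed, so it passed through its brighter animals. Without salt-fat animal 2 the difference was 0.77 and the call was lost. Oxct1, the transferase that activates acetoacetate for use, differed by -0.07 ± 0.10 (adjusted p = 0.704), and Acat1, the thiolase that splits it, by -0.11 ± 0.07 (adjusted p = 0.352).

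The PPAR target group held large falls and 2 rises. Pdk4, a kinase that shuts down pyruvate dehydrogenase when fat is burned, had signals of 83.3 to 355.8 (median 210.15) on the normal diet and 61.1 to 129.8 (median 105.1) on the salt-fat diet. The spread was wide in the normal-diet animals, 2 of which lay within the salt-fat range, and the difference was -0.87 ± 0.23 (adjusted p = 0.017). Pdk2, a related kinase, fell on 1386975_at, from 216.6 to 459.6 (median 380.25) to 148.4 to 255.7 (median 196.1), with overlap (-0.83 ± 0.18, adjusted p = 0.00309). The brighter Pdk2 probe set 1367892_at, with the same accession AF237719, differed by -0.17 ± 0.09 (adjusted p = 0.25). Vnn1, a pantetheinase that recycles a CoA precursor, was 417.9 to 615.2 (median 519.75) against 208.4 to 397.7 (median 328.3), without overlap (-0.75 ± 0.12, adjusted p = 0.000151). Acot12, an acetyl-CoA hydrolase whose promoter is printed above, was 106.5 to 151.8 (median 131.95) against 59.6 to 100.2 (median 87.4), again without overlap (-0.62 ± 0.16, adjusted p = 0.0138). Pdk4 was no longer called without normal-diet animal 1 or salt-fat animal 2 (-0.75 to -0.68).

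Acsl5, an acyl-CoA synthetase, moved the other way: signals of 145.5 to 175.3 (median 169.95) on the normal diet and 217.3 to 279.9 (median 234.8) on the salt-fat diet did not overlap (0.52 ± 0.08, adjusted p = 0.000205). Acsl1, the synthetase that directs fat toward oxidation in many tissues, fell on 1388153_at (-0.46 ± 0.13, adjusted p = 0.0308), and 1370939_at, with the same accession BI277523, differed by -0.33 ± 0.12 (adjusted p = 0.0773). Acot1, a cytosolic thioesterase, went from 444 ± 31.8 to 348 ± 59.8 (-0.36 ± 0.11, adjusted p = 0.0345). Fabp3, the heart-type fatty acid binding protein, was 833.6 to 952.4 (median 862.75) against 779.3 to 1418.5 (median 1064.05), higher in 5 of 6 salt-fat animals than in any normal-diet animal (0.29 ± 0.09, adjusted p = 0.0391). Cd36, a fatty acid uptake receptor, differed by -0.49 ± 0.21 (adjusted p = 0.141), and Angptl4, a secreted lipase inhibitor, by 0.08 ± 0.23 (adjusted p = 0.88). Calls lost on leaving out single animals were those of Fabp3 (any 1 of normal-diet animals 1 to 5 and salt-fat animals 1, 2, 4, 5 and 6, 0.20 to 0.29), Acot1 (normal-diet animals 1, 2, 5 or 6 or salt-fat animals 2, 3 or 6, -0.36 to -0.28) and Acsl1 1388153_at (normal-diet animals 2, 3 or 5 or salt-fat animals 2, 3 or 6, -0.46 to -0.37). Acsl1 1370939_at became called without normal-diet animal 6 (-0.43, adjusted p = 0.0121). At an unchanged -0.33 it was also called with array weights (adjusted p = 0.038) and without normal-diet arrays 1 and 2 of 8 weeks (adjusted p = 0.0448).

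**Figure D2:**
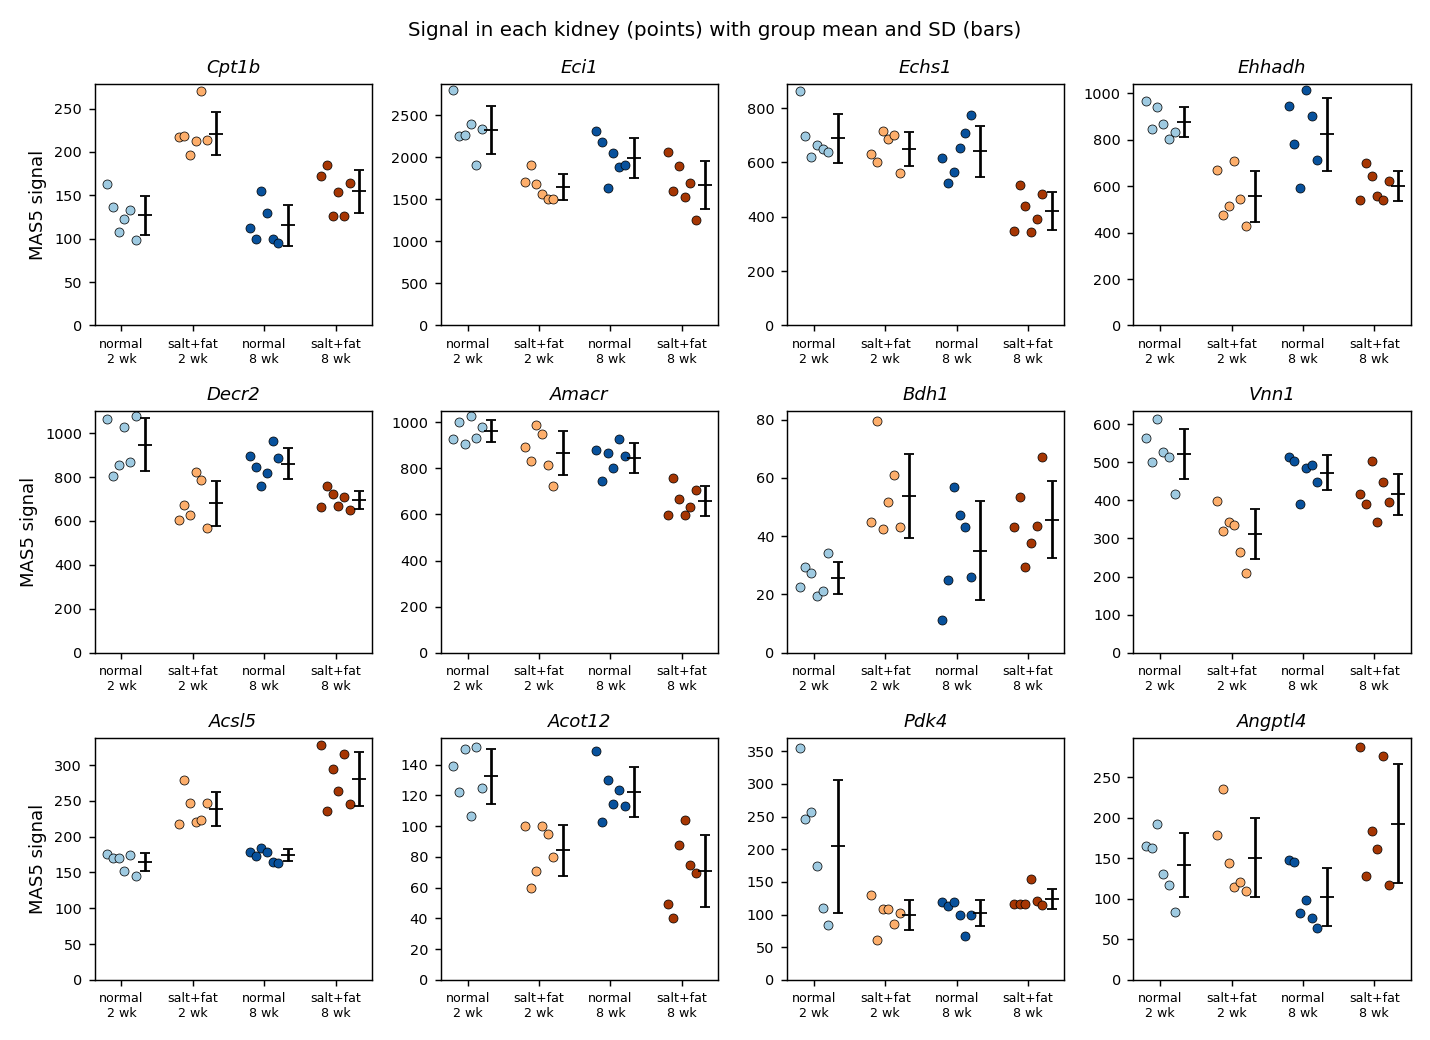
MAS5 signal of 12 member probe sets in each of the 24 kidneys (points), with the group mean and SD (bars) and an axis that starts at 0. Cpt1b and Acsl5 are higher in every 2-week salt-fat animal than in any 2-week normal-diet animal, and Eci1, Ehhadh, Vnn1 and Acot12 are lower.

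Markers of other tissue moved with diet at the same time. Of 7 tested adipocyte probe sets 6 fell at 2 weeks (median -1.87), with summed signals of 542.5 to 5419 on the normal diet and 221.7 to 510.6 on the salt-fat diet. Of 30 proximal tubule probe sets 15 fell and 0 rose (median -0.27), and their summed signals did not overlap (62398.7 to 68799.2 against 48081.8 to 59857.6). Collecting duct markers rose in 7 and fell in 1 of 15 probe sets, with sums of 2663.1 to 3255.8 against 3979.6 to 4630, and tubular injury markers rose in 4 of 10, with sums of 2948.2 to 3754.8 against 4646.2 to 5410.7; neither overlapped. Thick limb and distal tubule markers rose in 3 of 8, with overlapping sums of 8304.2 to 9284.7 and 8475.5 to 10318.8. No marker of these lists was listed at 0 on any array. The 3' to 5' ratio of the GAPDH control, a sign of RNA integrity, was 0.969 to 1.18 on the normal diet and 1.13 to 1.40 on the salt-fat diet. Over all 24 arrays it was lowest in normal-diet animal 1 and highest in salt-fat animal 2, both of 2 weeks. Normal-diet animal 2 of 2 weeks had a fat index of 1.82. These are the 3 animals whose omission lowered the 2-week count of called members most, and the link was not tested. With the fat index as a covariate, 6 members were called, 3 higher and 3 lower, against 2.27% of all probe sets. Cpt1b (0.87), Acsl5 (0.59), Vnn1 (-0.56), Decr2 (-0.55) and Pdk2 1386975_at (-0.92) remained among them, Ucp2 (0.53) joined, and Ehhadh was then -0.44 (adjusted p = 0.085). The 14 lost calls kept their direction with 32 to 101% of the difference fitted without the index, and their SEs were 1.11 to 1.33 times as large. Acsl1 1388153_at (-0.15), Pdk4 (-0.41) and Cpt1a 1367836_at (-0.23) moved most, while Hadh (-0.24), Fabp3 (0.26), Crot 1387183_at (-0.37) and Acot2 (-0.47) moved least as a share. With the GAPDH ratio as a covariate, 9 of the 19 remained called, 2 higher and 7 lower, against 3.08% of all probe sets. These were Cpt1b, Acsl5, Vnn1, Decr2, Ehhadh, Eci1, Acaa2, Hadh and Acsl1 1388153_at. Among them Cpt1b, Acsl5, Vnn1 and Decr2 were also called with the fat index. Pdk2 1386975_at was not called with the ratio (-0.66, adjusted p = 0.0714). The lost calls then had 34.1% (Cpt1a 1367836_at, -0.15) to 99.7% (Cpt2, -0.31) of the difference fitted without the ratio. The part of tubule, collecting duct and injury markers in the member differences was not tested.

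**Figure D3:**
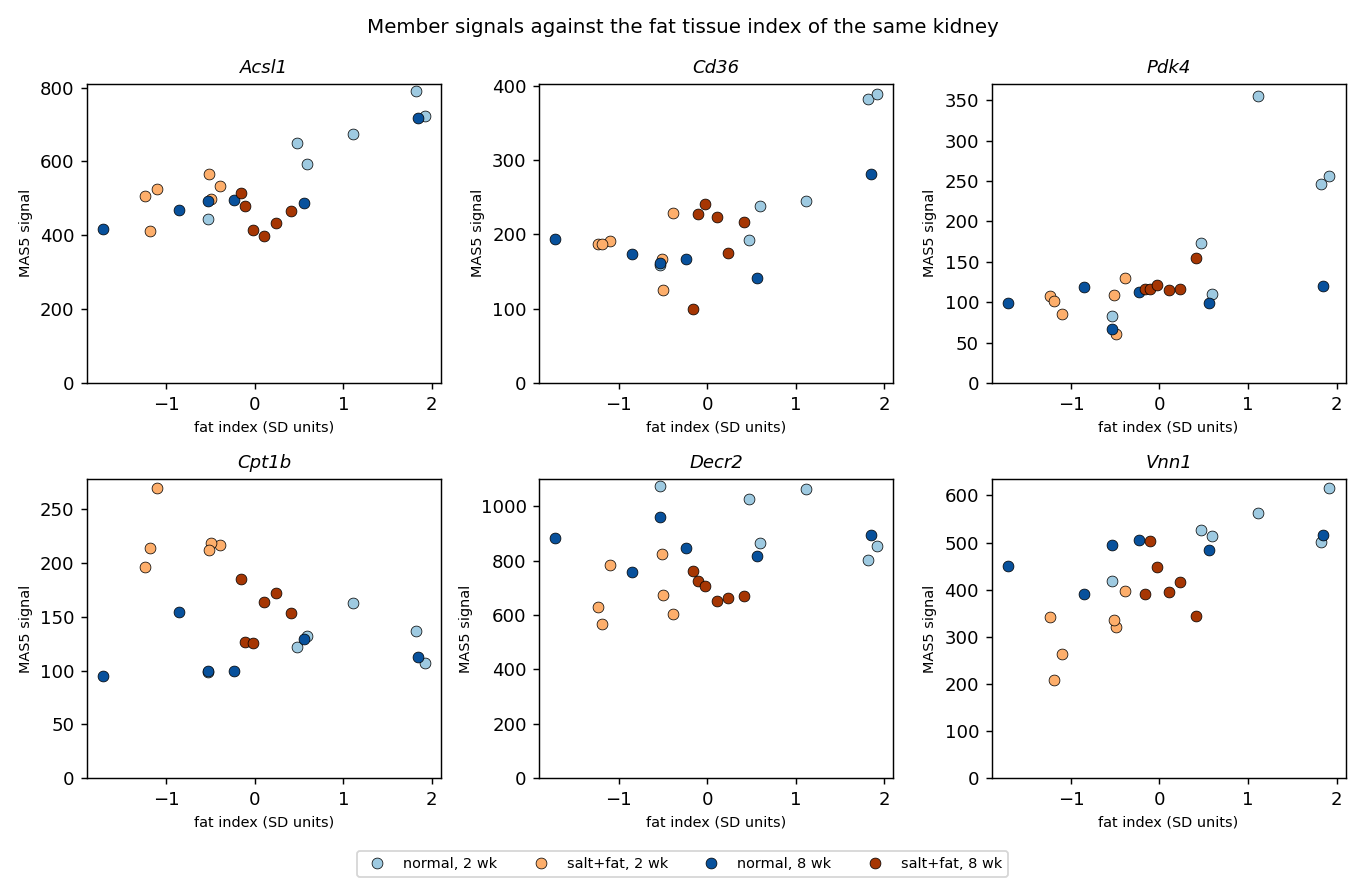
MAS5 signal of 6 member probe sets (Acsl1 is 1370939_at) against the fat index of the same kidney, in SD units, 1 point for each of the 24 animals, coloured by group. The 2-week normal-diet kidneys with the highest index also have the highest Acsl1 and Cd36 signals, while Cpt1b is higher in all 2-week salt-fat kidneys than in all 2-week normal-diet kidneys.

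After 8 weeks, fewer members differed between diets. Of 56 tested probe sets, 7 fell and 4 rose, 11 in all, read against 9.14% of all probe sets called, 3.51% lower and 5.63% higher. The median difference was -0.08, against 0.00 over all tested, and in 3 members the groups did not overlap, against 3.35% of all tested. Of 17 peroxisomal probe sets 4 were lower (median -0.17), and 16 of 17 differences were below 0. So were 15 of 16 for peroxisome assembly and matrix genes and 34 of 44 for other fat oxidation genes, which are not members. Mitochondrial genes gave 1 lower and 2 higher of 23 (median -0.06), PPAR targets 2 lower and 2 higher of 13 (median -0.06), and 0 of 3 ketone body probe sets were called with limma (1 with an unadjusted p under 0.05). The roles were again not tested against each other. The count was 7 without salt-fat animal 1 and 7 without salt-fat animal 5.

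Echs1, the short-chain enoyl-CoA hydratase of the mitochondrial cycle, showed the clearest fall at 8 weeks. Its signals were 525.5 to 774.7 (median 633.65) on the normal diet and 343.8 to 515.4 (median 416.25) on the salt-fat diet, without overlap (-0.60 ± 0.10, adjusted p = 0.000351). At 2 weeks the same probe set had differed by -0.08 ± 0.10 (adjusted p = 0.695). Cpt1b was still higher, at 94.9 to 154.7 (median 106.25) against 125.8 to 185.5 (median 158.75), now with overlap (0.41 ± 0.12, adjusted p = 0.0333). Ucp2, an inner membrane carrier of the uncoupling protein family, was 157.4 to 233.3 (median 188.25) against 186.1 to 289.1 (median 241.25), with overlap (0.36 ± 0.11, adjusted p = 0.0285). At 2 weeks Ucp2 had differed by a similar 0.31 ± 0.11 with limma (adjusted p = 0.066). It was called there without normal-diet animal 3 (0.37, adjusted p = 0.036) or salt-fat animal 3 (0.36, adjusted p = 0.0433). Cpt1a, Acadm and Hadha differed by -0.04 (1367836_at), 0.07 (1386946_at), 0.02 and 0.07, and none was called. Etfdh differed by -0.27 ± 0.09 (adjusted p = 0.056), and it was called without salt-fat animal 4 (-0.32, adjusted p = 0.0287) or 6 (-0.30, adjusted p = 0.041). The Cpt1b call was lost without normal-diet animals 1, 2, 5 or 6 or salt-fat animals 1, 2, 4 or 6 (0.35 to 0.41), and that of Ucp2 without normal-diet animals 4 or 6 or salt-fat animals 1, 3 or 5 (0.31 to 0.37).

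The peroxisomal falls at 8 weeks included the racemase Amacr, which prepares branched fatty acids and bile acid precursors for oxidation. It was 743.9 to 928 (median 860.85) on the normal diet and 595.5 to 759.7 (median 649.55) on the salt-fat diet, with a slight overlap (-0.36 ± 0.07, adjusted p = 0.00239). Ehhadh was 592.1 to 1012.6 (median 840.3) against 538.4 to 698.5 (median 588.6), with overlap (-0.44 ± 0.12, adjusted p = 0.0167). Decr2 was 758.6 to 962.6 (median 866.05) against 651.4 to 760.9 (median 688.45), where the ranges touched (-0.30 ± 0.09, adjusted p = 0.029). Eci2, the peroxisomal enoyl-CoA isomerase, was 473.3 to 503.9 (median 492.9) against 374 to 445.7 (median 413.8), so that the groups stood apart by a small margin (-0.24 ± 0.06, adjusted p = 0.00715). Phyh, the phytanoyl-CoA hydroxylase, differed by -0.29 ± 0.10 (adjusted p = 0.0602) and Hsd17b4 by -0.08 ± 0.07 (adjusted p = 0.568). Phyh was called without normal-diet animal 4 (-0.35, adjusted p = 0.0261) or salt-fat animal 6 (-0.36, adjusted p = 0.0184). The Decr2 call was lost without normal-diet animals 1, 5 or 6 or salt-fat animals 1, 4 or 5 (-0.31 to -0.27).

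Among PPAR targets at 8 weeks, Acsl5 and Angptl4 rose. Acsl5 was 163.3 to 184.6 (median 175.7) against 236.5 to 328.9 (median 279.5), with a clear gap between the groups (0.66 ± 0.08, adjusted p = 5.63e-06). Angptl4 was 64.4 to 148.4 (median 90.75) against 116.9 to 287.4 (median 172.45), with overlap (0.84 ± 0.23, adjusted p = 0.0207). Acot12 was 102.4 to 148.8 (median 119.15) against 40 to 103.8 (median 72.05), where a single salt-fat animal reached the normal-diet range (-0.78 ± 0.16, adjusted p = 0.00223). Pdk2 fell on 1367892_at, from 1260 ± 191 to 997 ± 100 (-0.33 ± 0.09, adjusted p = 0.0179), while 1386975_at differed by -0.38 ± 0.18 (adjusted p = 0.19), so the called probe set was not the one called at 2 weeks. Vnn1, Pdk4, Cd36 and Fabp3 were not called, at -0.19 ± 0.12, 0.26 ± 0.23, 0.06 ± 0.21 and 0.04 ± 0.09. The Acsl1 probe sets were not called either, at -0.06 (1388153_at) and -0.17 (1370939_at). The Angptl4 call was lost without normal-diet animal 6 or salt-fat animals 1 or 5 (0.71 to 0.73), and that of Pdk2 without normal-diet animal 4 or salt-fat animal 5 (-0.28 to -0.27). Bdh1 differed by 0.41 ± 0.24 (adjusted p = 0.308), Acat1 by -0.20 ± 0.07 (adjusted p = 0.0701) and Oxct1 by -0.07 ± 0.10 (adjusted p = 0.723). Acat1 was called without normal-diet animal 2 (-0.23, adjusted p = 0.0433) or salt-fat animal 4 (-0.25, adjusted p = 0.0216).

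Adipocyte markers were called in 0 of 7 probe sets at 8 weeks with limma (1 with an unadjusted p under 0.05), with summed signals of 188.4 to 4837.1 on the normal diet and 573.6 to 1051.3 on the salt-fat diet. The brown adipocyte markers Cidea (1.28 ± 0.24, adjusted p = 0.000805) and Ucp1 (1.505 ± 0.42, adjusted p = 0.023) rose, and the 5 probe sets of that list summed to 64.6 to 163.6 against 189 to 390.3. Proximal tubule markers fell in 11 of 30 probe sets (median -0.24), with sums of 53052.4 to 69690.5 against 49048.1 to 58013.3. Collecting duct markers rose in 4 and fell in 1 of 15, with sums of 3122.6 to 3686.1 against 3614.3 to 4559.8. Macrophage markers rose in 5 of 13, with sums of 3169.4 to 3871.1 against 3869.3 to 5259.5. Tubular injury markers rose in 8 of 10, with sums of 3201.9 to 4270 against 6766.1 to 14109. With the fat index as a covariate 12 members were called at 8 weeks, including all 11, against 10% of all probe sets. The part of brown fat, tubule, collecting duct, macrophage and injury markers in the member differences was not tested. Without normal-diet arrays 1 and 2, 8 of the 11 were called, and Cpt1b (0.36), Ehhadh (-0.40) and Decr2 (-0.29) were not.

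The 2-week and 8-week comparisons share no animals. Of the 25 probe sets called at either time, from 24 genes, 5 were called at both, all in the same direction: Cpt1b and Acsl5 higher, and Ehhadh, Decr2 and Acot12 lower. These 5 are 26.3% of the 19 at 2 weeks and 45.5% of the 11 at 8 weeks. Over all probe sets 282 were called at both times, 31.6% of those called at 2 weeks and 30.2% of those at 8 weeks, and 277 of the 282 had the same direction. Over the 56 tested members, 43 differences (76.8%) had the same sign at both times, against 65% of all tested, and 33 (58.9%) were larger in size at 2 weeks, against 49.6%. The test of the difference itself, the diet by time interaction, called 0 members with limma, against 0.382% of all probe sets, and 9 of 56 had an unadjusted p under 0.05, against 11.6% of all. The effects at the 2 times were thus not shown to differ for any member. The largest interaction was that of Pdk4, 1.13 ± 0.32 (adjusted p = 0.148), and without normal-diet animal 6 at 2 weeks it was 1.34 and called (adjusted p = 0.0214). Those of Angptl4 (0.77 ± 0.33, adjusted p = 0.355), Vnn1 (0.57 ± 0.16, adjusted p = 0.148) and Echs1 (-0.52 ± 0.15, adjusted p = 0.145) were not called. With array weights Echs1 was called (-0.60, adjusted p = 0.0299).

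**Figure D4:**
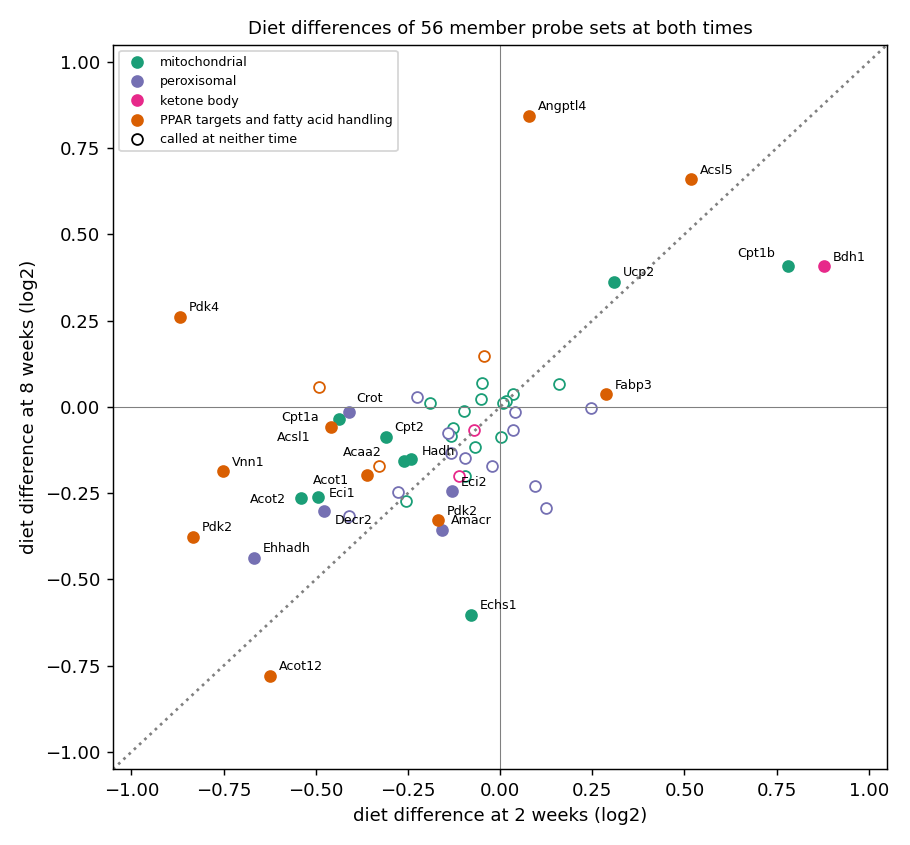
Diet differences of the 56 tested member probe sets at 2 weeks (horizontal axis, log2) and 8 weeks (vertical axis, log2), coloured by role, with the line of equal differences dotted. The 25 filled and named points were called at 1 or both times; Cpt1b and Acsl5 lie in the upper right, Acot12 and Ehhadh in the lower left.

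Between 2 and 8 weeks on the salt-fat diet, 7 members fell and 1 rose, 8 in all, read against 3.53% of all probe sets called, 1.3% lower and 2.22% higher. These values use the same salt-fat animals as the diet comparisons and are no separate support for them. They hold the effect of age as well as that of time on the diet. The falls were Echs1 (-0.63 ± 0.10, adjusted p = 0.00065), Cpt1b (-0.51 ± 0.12, adjusted p = 0.016) and, in peroxisomes, Acox2, Phyh, Amacr and Eci2. Fabp3 also fell, by 0.43 ± 0.09 on the log2 scale (adjusted p = 0.00475). Acox2, an oxidase of branched chains and bile acid precursors, was 345.1 to 532.2 (median 451.5) at 2 weeks and 261.5 to 373.4 (median 298.1) at 8 weeks, with overlap (-0.54 ± 0.12, adjusted p = 0.00737). Phyh, which starts the breakdown of phytanic acid, was 1476.5 to 2196.1 (median 1711.2) and then 973.8 to 1572.5 (median 1273.1), with overlap (-0.46 ± 0.10, adjusted p = 0.00767). Neither gene was called in a diet comparison. Eci2 fell from 488.8 to 568.9 (median 536.65) to 374 to 445.7 (median 413.8), without overlap (-0.36 ± 0.06, adjusted p = 0.000431), and Amacr by 0.39 ± 0.07 on the log2 scale (adjusted p = 0.00277). Vnn1 rose (0.43 ± 0.12, adjusted p = 0.036). On the normal diet mean signals went from 368 to 306 for Acox2, 963 to 846 for Amacr, 689 to 640 for Echs1 and 127 to 115 for Cpt1b. They went from 1597 to 1557 for Phyh and from 523 to 473 for Vnn1. The interaction called 0 members, so the changes on the salt-fat diet were not shown to differ from those on the normal diet. The salt-fat groups of the 2 times did not overlap in 3 members (Echs1, Cpt1b and Eci2), against 1.83% of all tested. The Cpt1b call was lost without salt-fat animals 3 or 5 of 8 weeks (-0.45), and that of Vnn1 without salt-fat animals 5 or 6 of 2 weeks or 1, 3 or 5 of 8 weeks (0.32 to 0.43). Muscle markers fell in 3 of 6 probe sets in the same comparison, with sums of 4045 to 5715 at 2 weeks and 3127 to 4340 at 8 weeks. Macrophage markers rose in 8 of 13, with sums of 3227.4 to 3818.3 and then 3869.3 to 5259.5, and tubular injury markers in 7 of 10, with sums of 4646.2 to 5410.7 and then 6766.1 to 14109, both without overlap. Of 7 tested adipocyte probe sets 7 were above 0 (median 1.19), 0 called with limma and 4 with an unadjusted p under 0.05. Their sums were 221.7 to 510.6 and then 573.6 to 1051.3, without overlap. Of 2 tested brown adipocyte probe sets 1 rose. With the fat index as a covariate 10 members were called, 0 higher and 10 lower, of 283 called over all probe sets. Vnn1 (0.32) was then not called. The part of adipocyte, muscle, macrophage and injury markers in the member differences was not tested.

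**Figure D5:**
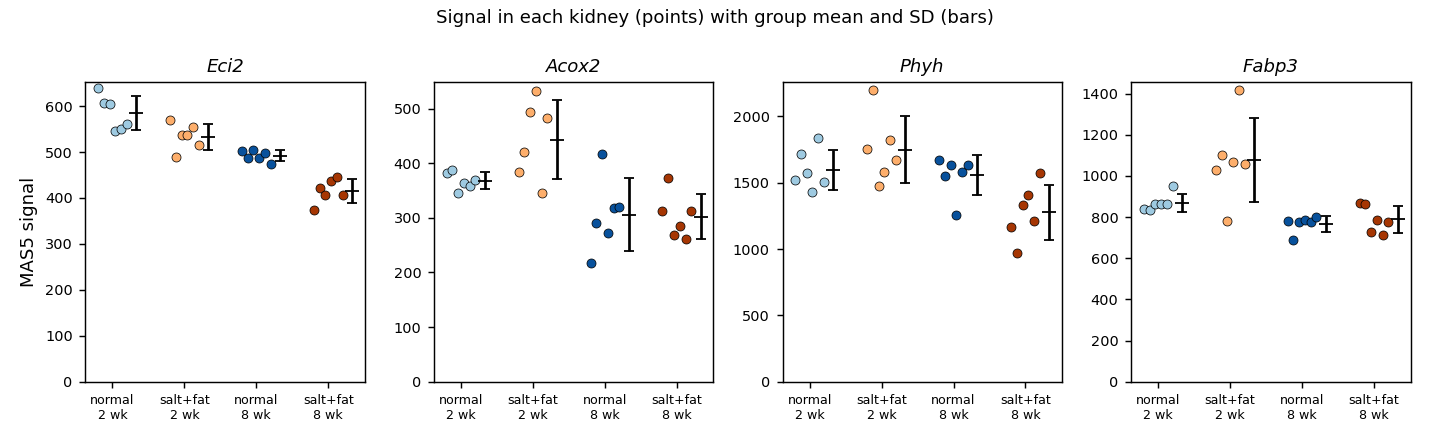
MAS5 signal of 4 members in each of the 24 kidneys (points) with the group mean and SD (bars). On the salt-fat diet all Eci2 signals at 8 weeks lie below all those at 2 weeks, while Acox2, Phyh and Fabp3 are lower at 8 weeks with overlap or with a single 2-week animal low.

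On the normal diet, 0 members were called between 2 and 8 weeks with limma, against 0.0392% of all probe sets. At an unadjusted p under 0.05 there were 17 of 56, against 8.51% of all tested. Of the 56 differences 48 were below 0 (median -0.12), where the median over all tested was 0.01. Adipocyte markers moved the same way: 7 of 7 tested probe sets were below 0 (median -1.45), 0 called with limma and 7 with an unadjusted p under 0.05, with sums of 542.5 to 5419 at 2 weeks and 188.4 to 4837.1 at 8 weeks. Among the members Cd36 differed by -0.46 ± 0.21 (adjusted p = 0.522) and Acsl1 by -0.39 ± 0.13 (1388153_at, adjusted p = 0.378) and -0.33 ± 0.12 (1370939_at, adjusted p = 0.414), and the part of fat in these differences was not tested. The largest was that of Pdk4 (-0.81 ± 0.23, adjusted p = 0.238), which was called without normal-diet animal 6 of 2 weeks (-1.02, adjusted p = 0.0357). In 2 members, Eci2 and Fabp3, the normal-diet groups did not overlap between times, against 0.686% of all tested. Eci2 was 545.5 to 638.5 at 2 weeks and 473.3 to 503.9 at 8 weeks (-0.24 ± 0.06, adjusted p = 0.169), and Fabp3 was 833.6 to 952.4 and then 691.2 to 799.5 (-0.18 ± 0.09, adjusted p = 0.579).

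Genes of the same routes that are not members were mostly lower where they were called. Of 44 tested probe sets of other fat oxidation genes, 6 fell and 1 rose at 2 weeks, and 7 fell at 8 weeks, 15.9% at each time. Cyp4a1, an omega-hydroxylase of fatty acids and a known PPAR alpha target, fell by 0.53 ± 0.08 at 2 weeks (adjusted p = 0.000208) and by 0.36 ± 0.08 at 8 weeks (adjusted p = 0.00761). Slc27a2, which takes up and activates very long chains, fell by 0.30 ± 0.07 and 0.34 ± 0.07 (adjusted p = 0.00456 and 0.0013). Cyp4a3 differed by -0.43 ± 0.08 at 2 weeks (adjusted p = 0.000652), Gcdh, an amino acid route dehydrogenase, by -0.30 ± 0.06 at 2 weeks and -0.22 ± 0.06 at 8 weeks (adjusted p = 0.00261 and 0.0221), and Acad10 by -0.56 ± 0.10 at 8 weeks (adjusted p = 0.000593). Of 16 tested peroxisome assembly and matrix probe sets, 2 fell at 2 weeks, the isocitrate dehydrogenase Idh1 (-0.26 ± 0.06, adjusted p = 0.00697) and the hydroxyacid oxidase Hao2 (-0.33 ± 0.08, adjusted p = 0.0134), and Idh1 alone fell at 8 weeks (-0.24 ± 0.06, adjusted p = 0.0132). These 2 of 16 and 1 of 16 (6.25%) are read against 8.74% and 9.14% of all probe sets called, so the 8-week count is below that share.

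Among 19 tested probe sets of regulators of these routes, 6 fell and 2 rose at 2 weeks (42.1%), and 4 fell at 8 weeks (21.1%). These shares are read against 8.74% and 9.14% of all probe sets called, and the 2 that rose are not named here. Hnf4a, a nuclear receptor of proximal tubule and liver that also binds DR1 elements, fell at 2 weeks on both probe sets, from 651 to 396 (1369289_at, -0.74 ± 0.13, adjusted p = 0.000558) and from 364 to 244 (1382496_at, -0.57 ± 0.12, adjusted p = 0.00282). At 8 weeks 1382496_at was called (-0.38 ± 0.12, adjusted p = 0.0438), and 1369289_at was not (-0.22 ± 0.13, adjusted p = 0.311). Rxra, the common partner of PPAR receptors, fell at 2 weeks (-0.74 ± 0.18, adjusted p = 0.00914), as did Prkaa2, a catalytic subunit of the energy sensor AMPK (-0.59 ± 0.13, adjusted p = 0.00476). Rxrg (-0.58 ± 0.14, adjusted p = 0.0108), the mitochondrial deacetylase Sirt3 (-0.33 ± 0.09, adjusted p = 0.0159) and Klf15 (-0.46 ± 0.13, adjusted p = 0.0242) were lower at 8 weeks. Ppara was too dim to be tested, with mean signals of 6.43 to 14.1 by group. Ppargc1a, a coactivator of mitochondrial genes, differed by -0.27 ± 0.16 at 2 weeks (adjusted p = 0.35) and -0.17 ± 0.16 at 8 weeks (adjusted p = 0.572).

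Over all comparisons, 29 of the 56 tested member probe sets were called in none. The untested probe sets had signals at or near the dim end of the arrays: Fabp1 (1369111_at), the liver-type fatty acid binding protein, at 1.4 to 16.8, Hadh 1389922_at at 4.8 to 28, Eci1 1370961_at at 3.3 to 31.7, and Bdh1 1368387_at at 3.3 to 70.7. Summed over the 60 member probe sets, the signal at 2 weeks was 41831 to 46686.7 on the normal diet and 37941.5 to 40987.2 on the salt-fat diet, without overlap. At 8 weeks it was 37580.4 to 41804.5 and 34882.3 to 38439.8, with overlap. The mitochondrial sum did not overlap at 2 weeks (21059.4 to 24420.1 against 19269.2 to 20880.7) but did at 8 weeks (19370.9 to 21446.9 against 18021.3 to 20213.7). Those of the PPAR target and ketone body probe sets overlapped at both times. The peroxisomal sum did not overlap at either time, at 11919.4 to 12486.2 against 10691.2 to 11730.5 at 2 weeks and 10669.7 to 11706.7 against 9348 to 10260.5 at 8 weeks. The sum of the 51 other fat oxidation probe sets, which are not members, did not overlap at either time either, at 31433.2 to 33165.6 against 25871.3 to 30900.7 and at 29133.1 to 32645.9 against 25428.6 to 28476.9.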

How the data were processed

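RNA of 24 whole kidneys was hybridised to an Affymetrix rat array. The authors deposited intensity values that are MAS5 signals per the submitters' processing notes, linear and non-negative, 1 for each of 15923 probe sets and array; the version, scaling target and detection calls are not given in the sources used here. Values were used as log2(signal + 7.2) without renormalizing; the pseudocount 7.2 is 0.1 of the typical array median. A probe set entered the test if 6 or more arrays had it over their 40th percentile, which lay at 44.48 to 54.5, and 10208 did. limma 3.58.1 under R 4.3.3 fitted 4 group means over all 24 arrays (lmFit and contrasts, moderated by eBayes with trend), p values were adjusted by Benjamini-Hochberg over all tested probe sets, and a probe set was called at an adjusted p under 0.05. Symbols came from the platform annotation and promoters from RefSeq tables of GRCr8. The procedure was tested on simulated data. Each of several probe sets of a gene is a separate measurement. Named were all called members, a fixed set whether called or not, and up to 4 genes of smallest p from each other list. Members, lists and settings were chosen with earlier results of these data known. Other settings were other pseudocounts, filters and scalings, array weights, a replicate block, covariates, 1 probe set for each gene, fewer groups and omitted arrays. The animals are separate per the labels.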

Additional observations from a re-analysis of the deposited data

Results flagged for a closer look

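In the 27 member probe sets of the largest changes or fixed by name, the highest or lowest animal of each of the 108 groups of 6 was compared with the rest by Dixon's criterion, which marks about 1 in 20 groups by chance; 7 were marked. Salt-fat animal 5 at 2 weeks had a Cpt1b signal of 269.9, where the others had 196.3 to 218.4. Fabp3 was 952.4 in normal-diet animal 6 at 2 weeks (others 833.6 to 863.6) and 691.2 in normal-diet animal 2 at 8 weeks (others 774.7 to 799.5). Pdk4 was 154.7 in salt-fat animal 4 at 8 weeks (others 114.6 to 121). Acot2 was 89.4 in normal-diet animal 6 at 2 weeks (others 107.9 to 114.4). Echs1 was 863.8 in normal-diet animal 1 at 2 weeks (others 619.1 to 698.2). Acsl1 1370939_at was 717.4 in normal-diet animal 1 at 8 weeks (others 418.3 to 495.4), which is also the 8-week kidney of the highest fat index, 1.85.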

How the results depend on the processing

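The direction of the 38 named differences that were called held in all 493 alternatives tried on them (single arrays left out are given apart), and 435 of these kept the call while 58 lost it. Calls of Cpt1a 1367836_at and Fabp3 at 2 weeks and of Vnn1 over time on the salt-fat diet were lost most often, each in 7 of 13 alternatives. Hadh and Acot1 at 2 weeks and Cpt1b at 8 weeks followed, each lost in 4 of 13. Of 298 alternatives on the 23 named differences that were not called, 285 kept their direction uncalled, 3 became called, all of Acsl1 1370939_at at 2 weeks (with array weights, without normal-diet arrays 1 and 2 of 8 weeks, and with the replicate block, -0.33, adjusted p = 0.0254), and 10 turned sign. At 2 weeks the count of called members, 19, was 6 with the fat index and 9 with the GAPDH ratio as a covariate, and 10 to 18 with single arrays left out; the cause was not tested. At 8 weeks it was 7 to 12 with single arrays left out, the interaction gave 1 with array weights and 0 to 1 with single arrays left out, and time on the normal diet gave 0 to 1. Time on the salt-fat diet gave 6 to 10. With single arrays left out, uncalled values changed sign at 8 weeks for Acadm (-0.0067 to 0.085), Cpt1a 1367836_at (-0.093 to 0.017), Acsl1 1388153_at (-0.11 to 0.0097), Cd36 (-0.011 to 0.23) and Oxct1 (-0.14 to 0.0028), and at 2 weeks for Angptl4 (-0.057 to 0.17). With quantile normalization at 2 weeks Acadm was 0.15, Hadha 0.0042 and Oxct1 0.012. With the fat index as a covariate Acsl1 1370939_at was 0.050 at 2 weeks and Cd36 -0.0010 at 8 weeks. With array weights at 8 weeks Cpt1a 1367836_at was 0.0084 and Acadm -0.0066, and without normal-diet arrays 1 and 2 these were 0.025 and -0.0265, with Acsl1 1388153_at at 0.018. Over all probe sets, 892 called at 2 weeks became 232 with the fat index and 314 with the GAPDH ratio, and 933 at 8 weeks became 542 without normal-diet arrays 1 and 2, 543 without salt-fat array 1 or 579 without salt-fat array 5. The 39 called interactions became 80 with array weights, 13 with the fat index and 4 with the GAPDH ratio, and 22 without salt-fat array 3 of 8 weeks. The 4 called on the normal diet over time ranged from 0 to 10, and the 360 on the salt-fat diet became 632 with array weights, 223 with only the groups compared, and 220 to 233 without salt-fat array 3 of 2 weeks or 5 of 8 weeks. Centring arrays on their medians moved the share of higher calls from 63.1 to 46.9% over time on the salt-fat diet and from 75 to 50% on the normal diet. The replicate number as a block gave 20, 11, 0, 0 and 8 called members for diet at 2 and 8 weeks, the interaction, and time on the normal and salt-fat diets; 24 same-numbered pairs correlated at -0.104 to 0.162, 5 over 0.1, and 4 of 24 arrays correlated best with their own number, so the numbers were not taken to pair animals. Precision is limited by 6 arrays a group, and probe sets such as Bdh1 lie near the dim end.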
